A study of Rattus norvegicus with 2 samples.

Results

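The receptors for neurotrophins and for the GDNF (glial cell line-derived neurotrophic factor) family were examined in sympathetic neurons of the rat stellate ganglion, the ganglion whose neurons innervate the heart. The 9 genes chosen by name were Ntrk2, Ntrk3, Ngfr, Sort1, Ret, Gfra1, Gfra2, Gfra3 and Gfra4, and 8 of them had a line among the 25395 gene names of the deposited values. Gfra1 was not analysed here, and the list does not hold every receptor of these families. Ganglia were dissociated and their cells sequenced in droplets (10x Genomics, 3′ chemistry) as 1 library from the normotensive Wistar strain and 1 from prehypertensive SHRs (spontaneously hypertensive rats), male animals per the study methods, at 5 to 6 weeks of age and with no drug treatment given in the labels. Each value is a mean over the sympathetic neuron cluster of a library, and is given here as a mean count after scaling each cell to 10000 counts. The study tells apart populations of sympathetic neurons with and without neuropeptide Y, which these means do not separate. With 1 library per strain there was no spread between replicates, so the differences carry no error and no test, and a difference between the strains cannot be told apart from one between the libraries.

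Neurotrophins are survival factors that developing sympathetic neurons take up from their targets. TrkB (Ntrk2) and TrkC (Ntrk3) are receptor tyrosine kinases for brain-derived neurotrophic factor and neurotrophin-3, whereas p75NTR (Ngfr) binds all neurotrophins and has no kinase domain. Sortilin (Sort1) pairs with p75NTR to bind the uncleaved proneurotrophins. GDNF family ligands signal through the tyrosine kinase Ret, which they reach by way of a GFRα coreceptor anchored in the membrane. Neurturin prefers the coreceptor encoded by Gfra2, artemin that of Gfra3 and persephin that of Gfra4.

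The cluster carried the transcripts of noradrenergic neurons. Slc6a2, the noradrenaline transporter gene, stood at 15.9 per 10000 in Wistar neurons against 15.2 in SHR neurons, and Th (tyrosine hydroxylase) at 10.2 against 10.1. Of the 12 sympathetic markers, all past the minimum set out below, 3 were lower in SHR by 1.5-fold or more (25.0%, against 26.5% of all genes) and 1 was higher. Dbh (dopamine β-hydroxylase) was 37.6% lower, Maoa 37.5% lower and Cacna1b 52.2% lower, while the transcription factor gene Hand2 was 80.5% higher. The vesicular monoamine transporter gene Slc18a2 was 32.1% lower, within 1.5-fold. Markers of other cell types were also present, and the sum of each of the 6 marker lists was lower in SHR, though single markers such as Glul (0.245 and 0.337) were higher. The summed level of 11 satellite glia and Schwann cell markers was 9.67 per 10000 in Wistar and 3.81 in SHR, of which Apoe made up 6.24 and 2.23. The 6 fibroblast markers summed to 1.84 and 0.353, and the 8 immune markers to 1.29 and 0.424. Endothelial, smooth muscle and pericyte, and erythrocyte markers each summed to at most 0.128 per 10000 in either library. The glial marker Kcnj10 was at 0.000598 in Wistar and at 0 in SHR, Sox10 was at 0.0914 and 0.0169, and the pan-immune marker Ptprc was at 0.00388 and 0.00473.

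Ngfr and Gfra2 were the abundant receptor transcripts of these neurons. Ngfr averaged 3.68 per 10000 in Wistar neurons and 3.41 in SHR neurons, ranking 374 and 434 among the genes above 0. Gfra2 had 1.68 and 1.83, ranking 973 and 861. Together these genes made up 80.5% of the summed mean of the 8 receptors in Wistar and 87.4% in SHR. Below them came Ret, Sort1, Ntrk3, Ntrk2 and Gfra3, in the same order in both libraries, with Gfra4 listed at 0 in each. The 3′ counts were compared between genes as counts per transcript, without division by transcript length. Since the values are means over a cluster, a transcript present in few neurons cannot be told apart from one present at a low level in many.

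**Figure D1:**
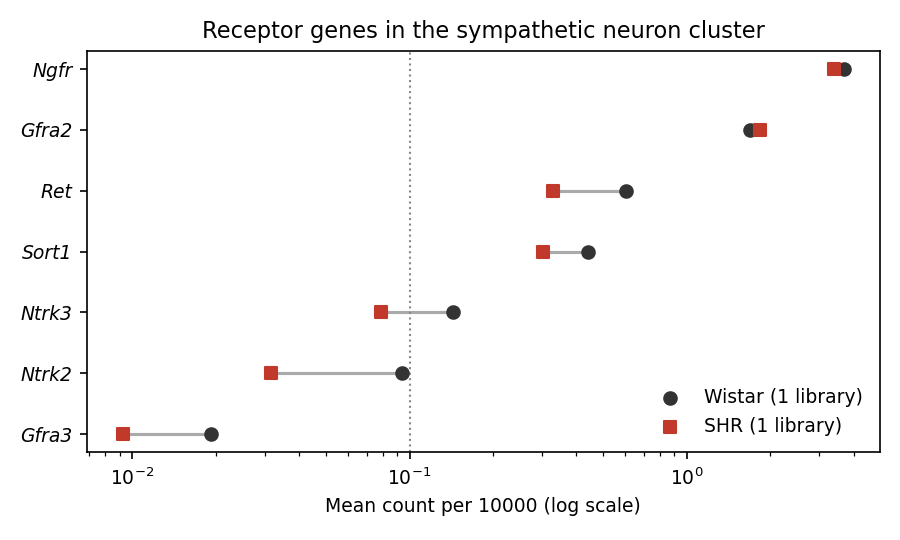
Mean count per 10000 (log scale) of the 7 receptor genes above 0 in the sympathetic neuron cluster, with 1 point per library (circles Wistar, squares SHR) and a dotted line at the minimum average of 0.1. Ngfr and Gfra2 sit close together in the 2 libraries, while the points of Ret, Sort1, Ntrk3, Ntrk2 and Gfra3 are farther apart, with SHR on the lower side.

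The depth per neuron is not in the values, but their low end sets a scale. The lowest mean above 0 was 0.00014 per 10000 in Wistar, shared by 16 genes, and 0.000391 in SHR, shared by 17 genes. If this lowest value is 1 count in the neuron with the most counts, every count adds at least that much. The Gfra3 mean in SHR was 23 times the lowest value and the Ntrk2 mean 81 times, so at most that many counts would stand behind them. For Ret and Sort1 in SHR the multiples were 843 and 777, and for Ngfr 8715. The values of Gfra3 and Ntrk2 would therefore rest on the fewest counts among the receptors above 0.

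Of the 8 receptors, 6 had a lower mean in SHR, 1 had a higher mean and 1 was at 0 in both libraries. A gene was counted as lower or higher by size when its means differed by at least 1.5-fold and averaged at least 0.1 per 10000 over both libraries. Only 5 of the receptors reached that minimum, of which 2, Ret and Ntrk3, were lower by 1.5-fold and 0 were higher. Among all 7621 genes past the minimum, 26.5% were lower by this rule, 5.22% were higher and 65.6% were lower by any amount, so 2 of 5 is not set apart from the background. With the median difference of these genes set to 0, the transcriptome split into 1320 lower and 1005 higher genes in place of 2021 and 398, and Ret and Ntrk3 were still among the lower.

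**Figure D2:**
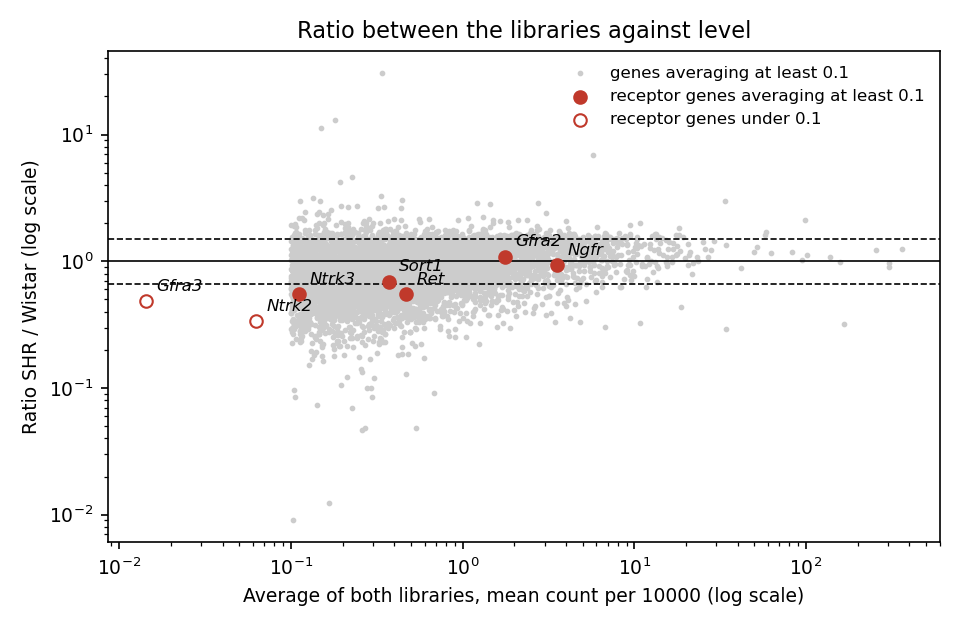
Ratio of the SHR mean to the Wistar mean against the average of both libraries (both axes log scale), with 1 grey point for each of the 7621 genes averaging at least 0.1 per 10000. Red points are the receptors past that minimum, open points those under it, and dashed lines mark 1.5-fold; Ret and Ntrk3 lie below the lower line, within the spread of genes of like level.

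Of the GDNF family receptors, the signalling kinase and its abundant coreceptor moved apart. Ret averaged 0.603 per 10000 in Wistar and 0.330 in SHR, which is 45.3% lower, a difference of -0.27 on the log2 scale of 1 plus the mean. Its rank went from 2907 to 3997. Gfra2, the neurturin coreceptor, was 8.74% higher in SHR, a log2 difference of 0.077. The ratio of Gfra2 to Ret was thus 2.79 in Wistar and 5.55 in SHR, a ratio within each library that no scaling of the libraries can change. Gfra3, the artemin coreceptor, had 0.0192 per 10000 in Wistar and 0.00926 in SHR. Gfra2 was 87.7 and 197.7 times Gfra3, whose SHR mean was only 23 times the lowest value listed there.

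Gene span moved with these differences. The 7288 genes past the minimum with a span in the GRCr8 annotation were split into 10 equal groups by span, and the share lower by 1.5-fold was 8.37% in the shortest group and 47.1% in the longest. Ret spans 42.2 kb, in a group where 29.3% of genes were lower by 1.5-fold and the median log2 difference was -0.073. With each group's median set to 0, the log2 difference of Ret was -0.20. Its ratio of means, centred likewise but without the added 1, was under 1.5-fold. Gfra2 spans 91.9 kb, in a group with 40.9% of genes lower and a median of -0.12. Centred on that group, its log2 difference was 0.19 on the scale of 1 plus the mean, which is less than 1.5-fold. Its centred ratio of means without the added 1, on which the fold was counted, passed 1.5-fold as higher. The part of gene span in these differences was not tested.

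The 250 bases before the annotated start of Ret, the receptor with the largest log2 difference, are shown with those of Sort1, its neighbour in level. They come from RefSeq on GRCr8, whereas the values were made on Rnor_6.0. Capitals mark the GC box GGGCGG, searched on both strands.

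Ret (chr4:153040557-153040806, minus strand): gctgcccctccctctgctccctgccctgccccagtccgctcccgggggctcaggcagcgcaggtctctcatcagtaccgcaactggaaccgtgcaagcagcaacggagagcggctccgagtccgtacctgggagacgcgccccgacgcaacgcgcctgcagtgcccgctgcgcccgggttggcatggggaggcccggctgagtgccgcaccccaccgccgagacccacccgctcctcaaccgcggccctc

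Sort1 (chr2:198612245-198612494, plus strand): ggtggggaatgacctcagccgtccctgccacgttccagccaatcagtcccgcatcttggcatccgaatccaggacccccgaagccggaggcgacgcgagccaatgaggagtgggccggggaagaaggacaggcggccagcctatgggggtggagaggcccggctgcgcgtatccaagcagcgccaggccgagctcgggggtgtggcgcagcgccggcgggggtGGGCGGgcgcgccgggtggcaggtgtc

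Both windows are rich in G and C, at 72.8% for Ret and 71.6% for Sort1, against a median of 51.2% and an upper decile of 68.4% over 33469 rat promoter windows of this length. Each holds 25 CpG dinucleotides, where the median window holds 5. The window of Sort1 holds 1 GC box, which 30.5% of all windows have at least once, and that of Ret holds 0. Neither holds TATAAA on either strand, which 12.9% of all windows do. No value of these libraries bears on how these sequences are used.

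Among the neurotrophin receptors, p75NTR was nearly level and the Trk genes were lower in SHR. Ngfr was 7.42% lower, a log2 difference of -0.087. It was among the 762 genes of the highest of 10 level groups, which had a median log2 difference of 0.15. Relative to that median Ngfr was lower by 0.23, though the group is wide, with averages from 2.02 to 361.7 per 10000. Ntrk3 averaged 0.144 per 10000 in Wistar and 0.0787 in SHR, which is 45.3% lower. Ntrk3 was just past the minimum, in the lowest of the level groups, where 39.3% of genes were lower by 1.5-fold. It spans 387.4 kb, in the group of the longest genes, and with that group's median set to 0 its log2 difference of -0.085 became 0.039. Ntrk2 had 0.0938 in Wistar and 0.0317 in SHR, a mean 66.2% lower, the largest percent difference of the 7 receptors above 0 but under the minimum. Truncated forms of TrkB and TrkC without a kinase domain exist, and 1 value per gene does not tell them from the full-length receptors.

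Ngfr exceeded Ntrk3 by 25.6 times in Wistar and 43.3 times in SHR. Sort1, the proneurotrophin partner of p75NTR, averaged 0.440 per 10000 in Wistar and 0.304 in SHR, which is 30.9% lower and short of 1.5-fold. There were 8.36 Ngfr counts for each Sort1 count in Wistar and 11.2 in SHR. Sort1 and Ret were near each other in level, with Ret 1.37 times Sort1 in Wistar and 1.08 times in SHR.

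Glia are a known source of several of these transcripts: Schwann cells make p75NTR and GFRα3, and glia make truncated TrkB. The glial markers were 60.6% lower in SHR as a sum, and 54.0% lower without Apoe, and 10 of the 11 were lower. Of the 7 that averaged at least 0.1, 6 were lower by 1.5-fold, among them Mbp (1.05 and 0.632) and S100b (0.424 and 0.0744). Ntrk2 and Gfra3, which would rest on the fewest counts, were lower by 66.2% and 51.8%, and Ret, Ntrk3 and Sort1 by 30.9% to 45.3%. Ngfr was 7.42% lower. Of the 12 sympathetic neuron markers, 9 were also lower in SHR, from 0.72% for Th to 52.2% for Cacna1b, and the others were higher. The part of RNA from other cells in these values was not tested.

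**Figure D3:**
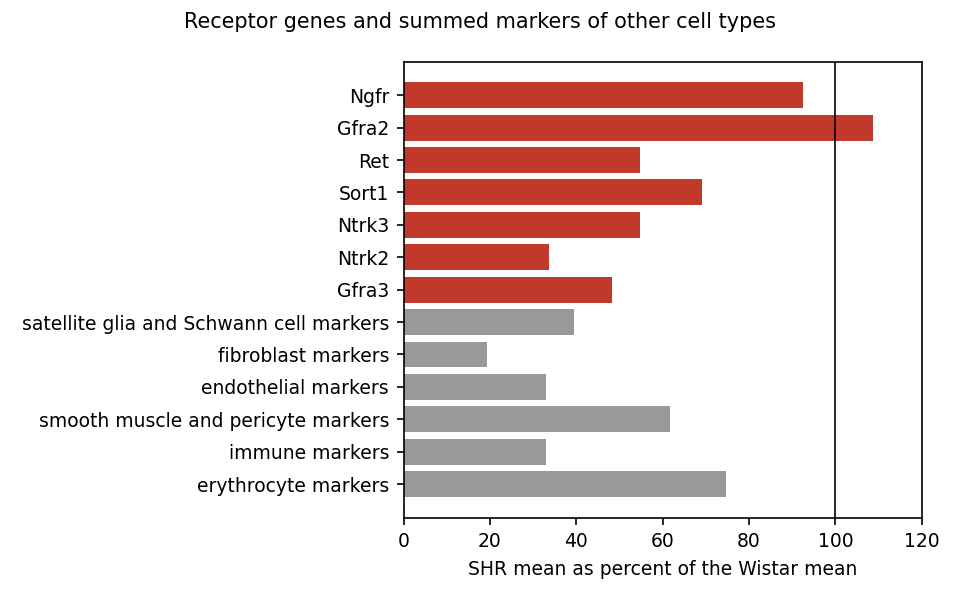
SHR mean as a percent of the Wistar mean for the 7 receptor genes above 0 (red) and for the summed markers of 6 other cell types (grey), with a line at 100. Ngfr and Gfra2 lie near the line, while the other 5 receptors lie between Ntrk2 and Sort1, within the range of the marker sums. Markers of sympathetic neurons are not drawn, and 9 of those 12 were also lower in SHR.

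The ligands were almost absent from the neurons of both libraries. None of the ligand genes listed averaged 0.1 per 10000. Nrtn (neurturin) had 0.0183 in Wistar and 0.011 in SHR, and Artn (artemin) had 0.0144 and 0.0271. Pspn (persephin) had 0.0193 in Wistar and 0.000802 in SHR, the latter 2 times the lowest value listed there. Bdnf had 0.000825 and 0.00547. Gdnf was at 0.000352 and 0, and Ntf3 and Ntf4 at 0 in both. In SHR these means were at most 69 times the lowest value, so few counts would stand behind them, and no comparison between the libraries is drawn for the ligands.

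Of the partners that share a complex or a sequence family with these receptors, 14 of 15 had a line and 6 passed the minimum, all 6 of them lower in SHR and 4 by 1.5-fold. Over all genes past the minimum, 65.6% were lower and 26.5% lower by 1.5-fold. Sorcs1, a sortilin relative, had 0.544 per 10000 in Wistar and 0.169 in SHR, 68.9% lower. Sorcs1 was thus above Sort1 in the Wistar library and below it in SHR, with ratios of 1.24 and 0.555. Ncam1, a cell adhesion molecule that can serve as a GDNF receptor, had 1.41 and 0.692. The receptor phosphatase genes Ptprf and Ptprs were 42.9% and 63.9% lower. Lingo1, a p75NTR coreceptor, had 0.749 and 0.717, and Sdc3 (syndecan-3), a GDNF-binding proteoglycan, had 1.78 and 1.73. By span, Sorcs1, Ncam1 and Lingo1 were in the group of the longest genes, where 47.1% were lower by 1.5-fold. Ptprf, Ptprs and Sdc3 were in groups with 40.9%, 35.4% and 23.3% lower.

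The 4 most abundant adaptor and p75NTR-binding genes averaged 4.08 to 4.95 per 10000 in Wistar, above Ngfr. Of 24 genes, 23 had a line and 13 passed the minimum, with 2 lower by 1.5-fold (15.4%, against 26.5% of all genes) and 0 higher (against 5.22%). Kidins220, the scaffold of Trk receptors also called ARMS, had 4.08 per 10000 in Wistar and 2.63 in SHR, 35.6% lower. Sos2, a Ras exchange factor, was 46.2% lower. Arhgdia, a GDP dissociation inhibitor that p75NTR binds, had 4.95 and 6.31, Bex3 had 4.67 and 5.82, and Maged1, which binds p75NTR, had 4.37 and 3.94.

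Of the 25 genes of Ras, MAPK, PI3K and PLCγ signalling, 20 passed the minimum, with 8 lower and 1 higher by 1.5-fold. That is 40.0% lower, against 26.5% of all genes. The higher gene was Hras, with 1.60 per 10000 in Wistar and 2.63 in SHR. Map2k5, the kinase that activates ERK5, was 56.1% lower, the kinase gene Src 51.5% lower and Pik3r1, a PI3K regulatory subunit gene, 37.6% lower. By span, Map2k5, Pik3r1 and Src were in groups where 47.1%, 40.9% and 35.4% of genes were lower by 1.5-fold. The part of gene span in the share of this list was not tested. Mapk3 (ERK1) had 5.36 and 6.95 and Map2k1 (MEK1) had 2.27 and 2.56, both within 1.5-fold.

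Genes of the signalling endosome and of retrograde transport, which carry activated receptors to the cell body, were within 1.5-fold in 12 of the 13 past the minimum (92.3%, against 68.3% of all genes), with 1 lower and 0 higher. That gene was Dync1h1, the dynein heavy chain, with 6.24 per 10000 in Wistar and 4.15 in SHR. Cltc (clathrin heavy chain) had 7.63 and 5.28, Ap2m1 (an AP-2 adaptor subunit) had 4.82 and 5.83, and Cfl1 (cofilin) had 14.1 and 19.6. The ratio of Wistar to SHR was 1.502 for Dync1h1 and 1.445 for Cltc, close to the cut on either side. All of these named genes were in the highest level group, where only 8.53% of genes were lower and 14.7% higher by 1.5-fold.

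Genes that respond to trophic signalling or feed back on it gave 2 lower and 1 higher by 1.5-fold of 10 past the minimum, and 20.0% lower is near the 26.5% of all genes. Vgf, a secreted peptide precursor induced by neurotrophins, had 0.723 per 10000 in Wistar and 0.594 in SHR. Egr1 had 1.48 and 1.45, and Fos had 3.18 and 2.48. The genes lower by 1.5-fold were Cblb, a ubiquitin ligase gene, at 0.720 and 0.356, and Spry2, an inhibitor of receptor tyrosine kinase signalling, at 0.164 and 0.0923. Arc, named after its value was seen, was the higher gene, at 0.0847 and 0.133.

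Of 21 genes of the response to trophic deprivation and of cell death, 19 had a line and 10 passed the minimum, with 1 lower by 1.5-fold (10.0%, against 26.5% of all genes) and 0 higher. The lower gene was Bcl2, the antiapoptotic founder of its family, with 0.208 per 10000 in Wistar and 0.0761 in SHR. Jun had 3.33 and 2.56, Bax had 1.12 and 1.11, Bad had 0.795 and 1.01, and Diablo had 1.10 and 1.26. Over all 8 pathway lists, 118 of 123 genes had a line and 72 passed the minimum, of which 18, or 25.0%, were lower by 1.5-fold and 2 were higher. The median log2 difference of the 72 was -0.053 against -0.052 for all 7621 genes.

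**Figure D4:**
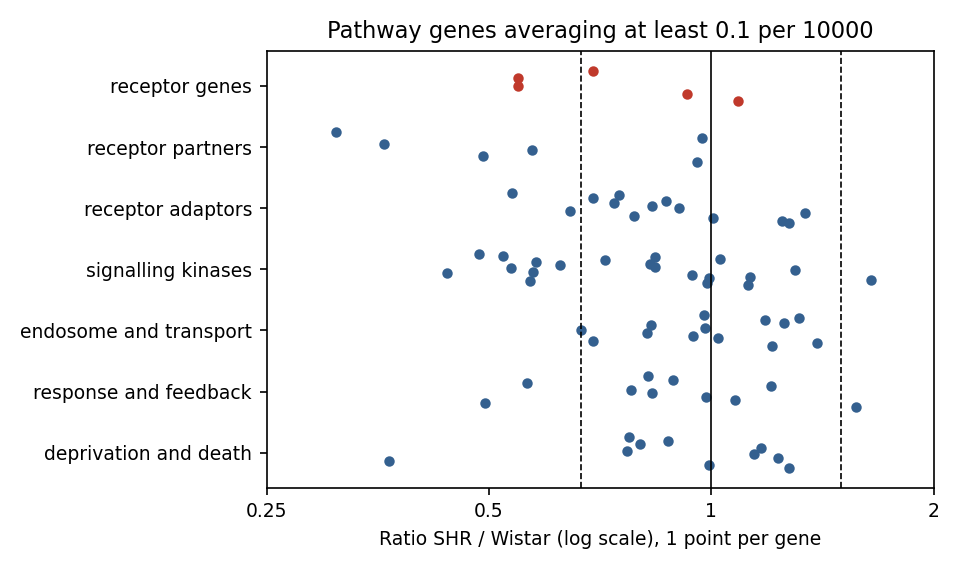
Ratio of the SHR mean to the Wistar mean (log scale) for pathway genes averaging at least 0.1 per 10000, with 1 point per gene, the receptors in red, a solid line at 1 and dashed lines at 1.5-fold in either direction. The 6 receptor partners all lie below 1, and the other pathway lists lie on both sides of it.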

How the data were processed

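Stellate ganglion cells of Wistar rats and SHRs were sequenced as 1 library per strain (10x Genomics, 3′ version 3 chemistry). The submitters' processing notes name Cell Ranger 3.0.2, Seurat 3, DESeq2 and the build Rnor_6.0, without their roles. The authors clustered the cells and deposited, per library and gene, the natural log of (1 + mean), where the mean is taken over the cluster of sympathetic neurons after scaling each cell to 10000 counts. Filters on cells and the treatment of doublets are not given in the sources used here, and the number of neurons and their depth are unknown. A table of the authors' own comparison (fold changes, p-values and shares of cells) was not used. It holds 2 columns of shares that no column name assigns to a strain.

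Values were converted back and summed to 10000 in each library. Of 25399 lines, 4 whose name occurs more than once were dropped, and 26 names had the form of dates. Percent differences, ratios and differences of log2(1 + mean), SHR minus Wistar, were computed with Python 3.11.15, NumPy 2.4.6 and pandas 2.3.3. The added 1 understates differences of low genes. A gene was called by size at 1.5-fold or more with an average of at least 0.1 per 10000. The fold was taken on the ratio of means without the added 1, also where values were centred. The code for the calls was run on made-up values with set 2-fold changes and no noise. That checks the code alone and not how the calls behave under sampling error. Spans were matched by symbol or synonym for 95.6% of the genes past the minimum. Promoter windows were found for Sort1, Ret, Gfra3 and Gfra4.

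The receptors and lists were chosen with earlier results of these data known. Named genes are the receptors and, from each list, up to 4 of highest average and up to 2 of largest ratio past 1.5-fold, and for markers the 2 of highest average. A few genes that the rule names are left out here. Other marker genes named, among them Dbh, Maoa, Cacna1b, Hand2, Slc18a2 and Glul, were chosen after their values were seen. Alternatives were other pseudocounts, totals, centrings, minimums and folds.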

Additional observations from a re-analysis of the deposited data

How the results depend on the processing

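Depth is unknown, and no library was left out, since each strain has only 1. No paired analysis was possible because there is only 1 library on each side. Values moved when they changed sign or by over 1.5 times. The ranks of the receptors without mitochondrial and ribosomal protein genes, and every count and median with that total or with one lacking markers of other cell types, stayed within 1.5 times of the reported values.

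The count of receptors lower by the fold, 2, became 0 at 2-fold, 0 with a minimum of 0.5 per 10000, 4 with no minimum, 1 centred on the tenth of level and 0 centred on the tenth of gene span, where 1 was higher in place of 0. The log2 difference of Ntrk3 reversed to 0.039 there, and that of Gfra3 became 0.038 with the median of genes past the minimum set to 0. The signs of the other receptors above 0 held under the alternatives run for them. At a pseudocount of 0.01 the largest log2 difference was that of Ntrk2, at -1.32, with Ret at -0.85.

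The pathway genes lower by the fold, 18, became 7 at 2-fold, 8 with the minimum of 0.5, 28 with no minimum and 8 centred on span. Those higher, 2, became 0 at 2-fold, 9 at the smallest fold tried, 1 with the minimum of 0.5, 7 with no minimum, and 6 with the median set to 0 or centred on span. The median of their log2 differences, -0.053, was -0.18 at a pseudocount of 0.1, -0.22 at 0.01 and -0.0073 at 10. It became -0.027 with the minimum of 0.5, -0.021 with no minimum, -0.00035 with the median set to 0, -0.0017 centred on span and 0.0023 centred on level. Fold and minimum change which genes are counted by construction, and for the rest the cause was not tested. The transcriptome gave 2021 lower and 398 higher genes, 861 and 58 at 2-fold, 3211 and 1185 at the smallest fold tried, 508 and 224 with the minimum of 0.5, 5108 and 1650 with no minimum, 1110 and 648 centred on span and 1222 and 818 centred on level.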

Other observations

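Ret and Gfra2 are known from cholinergic sympathetic neurons, such as those that innervate sweat glands. Of the 5 cholinergic markers, only Slc5a7 averaged at least 0.1 per 10000. The choline transporter gene Slc5a7 averaged 0.432 per 10000 in Wistar and 0.218 in SHR, 49.7% lower. Vip (vasoactive intestinal peptide) had 0.150 and 0.0134. Chat was listed at 0 in both libraries, Slc18a3 had 0.000393 and 0.000523, and Tlx3 was at 0 in Wistar and 0.000792 in SHR.

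The genes nearest to Ngfr in both libraries, by distance on the log2 scale of 1 plus the mean over the 2 libraries, were Tmem59 (3.65 and 3.39 per 10000), Hsp90b1 (3.78 and 3.35) and Mbnl2 (3.78 and 3.34). A likeness over 2 libraries describes level alone.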
